A study of Homo sapiens with 14 samples.

Results

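The mitochondrial genome encodes 13 mRNAs, 2 rRNAs and 22 tRNAs, and their counts were examined in Kasumi-1 cells together with 11 nuclear genes that make, cut or stabilise mitochondrial RNA. The members were every row whose gene name starts with MT- and the rows of HSD17B10, TRMT10C, PRORP, ELAC2, POLRMT, TFAM, TFB2M, LRPPRC, SLIRP, FASTKD4 (listed as TBRG4) and FASTKD5. These were 48 of the 16405 genes in the table of the knockdown experiment and 26 of the 12325 genes in the table of the RB98# experiment, in which the 22 tRNAs were not analysed here. In the knockdown experiment 12 of the 22 tRNA rows were lower and 2 were higher in shRBPMS cells, and 1 of the 13 mRNA rows was lower and 1 was higher, against 18.4% lower and 17.5% higher of all genes tested. HSD17B10, which encodes a subunit of mitochondrial RNase P, was 2.38 higher on the log2 scale.

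Kasumi-1 is a single myeloblast line of human leukemia with an 8;21 translocation, and all groups share it. In the knockdown experiment the cells were infected for 48 h with lentivirus that carried an shRNA against the RNA-binding protein RBPMS (shRBPMS, n = 3) or a scrambled control shRNA (shCtrl, n = 3), and both groups were then selected for 48 h with puromycin. In the other experiment the cells received RB98# (n = 2), a compound known here by its code name alone, or DMSO (n = 2), at a dose and for a time that the labels do not give. The labels do not say whether replicates were separate cultures, so p-values may measure technical spread only. RNA was taken from cells in bulk, in which fewer cells of a kind and less RNA per cell cannot be told apart.

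Both strands of mitochondrial DNA are transcribed by POLRMT, with TFAM and TFB2M, into long RNAs in which tRNAs lie between most of the mRNAs and rRNAs. The tRNAs are cut out of these precursors, at the 5′ end by mitochondrial RNase P, a complex of TRMT10C, HSD17B10 and PRORP, and at the 3′ end by ELAC2. These cuts also free the mRNAs and rRNAs on either side, and LRPPRC with SLIRP then keeps most of the mRNAs stable.

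The following sequences are from the GENCODE v29 transcripts of GRCh38, written as DNA 5′ to 3′ along the tRNA, with the anticodon in capitals. The first 3 are the tRNAs with the largest decreases in shRBPMS cells, and the last 3 are tRNAs that were not lower. MT-TS1 and MT-TD lie between MT-CO1 and MT-CO2, on opposite strands, so that RNA of the plus strand that spans MT-CO1 to MT-CO2 holds the complement of MT-TS1 and the tRNA MT-TD itself.
MT-TD (tRNA for aspartate, chrM:7518-7585, plus strand, anticodon GTC): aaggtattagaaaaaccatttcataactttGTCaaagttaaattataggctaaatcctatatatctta
MT-TS1 (tRNA for serine, chrM:7446-7514, minus strand, anticodon TGA): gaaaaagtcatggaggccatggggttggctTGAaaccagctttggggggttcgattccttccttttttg
MT-TW (tRNA for tryptophan, chrM:5512-5579, plus strand, anticodon TCA): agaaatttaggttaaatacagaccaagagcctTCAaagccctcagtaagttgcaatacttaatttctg
MT-TG (tRNA for glycine, chrM:9991-10058, plus strand, anticodon TCC): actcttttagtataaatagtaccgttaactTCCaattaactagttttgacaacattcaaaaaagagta
MT-TH (tRNA for histidine, chrM:12138-12206, plus strand, anticodon GTG): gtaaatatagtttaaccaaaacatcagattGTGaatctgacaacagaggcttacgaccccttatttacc
MT-TP (tRNA for proline, chrM:15956-16023, minus strand, anticodon TGG): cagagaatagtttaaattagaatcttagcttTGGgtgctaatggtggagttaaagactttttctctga

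Libraries held 25.2, 27.7 and 27.1 M counts for shRBPMS, 24.03, 27.4 and 34.4 M for shCtrl, 15.2 and 13.9 M for RB98# and 14.2 and 15.3 M for DMSO. The sample descriptions split the knockdown libraries by name into set 1, which is replicate 1 of both groups, and set 2, which is replicates 2 and 3, and do not say what a set is. Mitochondrial rows took 13.2% of counts in shRBPMS and 15.2% in shCtrl in set 1, but 6.95% and 6.76% in shRBPMS and 6.28% and 6.20% in shCtrl in set 2. The set was a covariate in the knockdown test because the rule that defined the members asked for it, and both groups hold libraries of both sets. RBPMS itself stood at 2.53, 3.34 and 3.08 CPM (TMM-scaled counts per 1e6 counts of the library) in shRBPMS and at 20.4, 7.24 and 7.39 CPM in shCtrl, a log2 fold change of -1.79 (SE 0.31, edgeR adjusted p 0.00254). The 6 myeloid blast markers were all measured and summed to between 15179 and 16910 CPM in shRBPMS and between 13565 and 17641 CPM in shCtrl. MPO made up most of this sum, at 14628, 13647 and 14209 CPM in shRBPMS and 11544, 16313 and 16361 CPM in shCtrl. The sum thus says little about the other markers. Among the 6 markers CD33 rose by 1.69 and ANPEP by 1.72, and RUNX1T1 fell by 0.68 on the log2 scale. Of the markers of other cells, EPCAM was at 36.1 to 65.4 CPM in shRBPMS and 26.6 to 40.1 CPM in shCtrl, higher in shRBPMS within each set, and it rose by 0.52 on the log2 scale (adjusted p 0.000900). Of the 4 epithelial markers listed EPCAM was the only 1 analysed, so it does not stand for the cell type. The 4 T cell genes summed to 47.4 to 117 CPM in shRBPMS and 59.2 to 84.9 CPM in shCtrl, of which CD4 made up most and was not called. CD3D, at 1.83, 2.63 and 2.25 CPM in shRBPMS and 8.96, 8.50 and 7.93 CPM in shCtrl, fell by 1.91, and CD3E, at 0.105 to 0.204 CPM in shRBPMS and 0.828 to 1.87 CPM in shCtrl, fell by 3.06. The 2 B cell genes summed to 2.29 to 3.22 CPM in shRBPMS and 1.92 to 3.34 CPM in shCtrl. The part of these markers in the mitochondrial results was not tested, and fibroblast and erythroid markers were not analysed here.

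In the knockdown test 5810 of 16215 genes, or 35.8%, passed an adjusted p of 0.05, 17.5% of all genes higher and 18.4% lower in shRBPMS. Of the 48 members 7 were higher and 14 lower. The tRNAs were the class with the most calls, 12 of 22 lower, with a median log2 fold change of -0.94 against 0.02 over all genes tested. Without the set as a covariate the test called 320 genes, 1.97%, and 5 members, which were MT-TD, MT-TS1, MT-TW, MT-TM and HSD17B10. These 5 were also called in all 16 settings of the test that were tried. With the replicate number as a block the test called 28.1% of genes and 18 members, and with replicates 2 and 3 of each group summed it called 16.3% of genes and 14 members.

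MT-TD, the aspartate tRNA, had 32, 30 and 27 counts in shRBPMS replicates 1, 2 and 3 and 1961, 566 and 572 counts in shCtrl replicates 1, 2 and 3. Its level was 1.30, 1.05 and 0.966 CPM in shRBPMS and 87.4, 20.3 and 16.3 CPM in shCtrl. Every shRBPMS library was thus far below every shCtrl library, and the control of set 1 was the highest. The log2 fold change was -4.98 (SE 0.30, edgeR adjusted p 2.12e-05), with -6.07 in set 1 and -4.18 in set 2. Per base, MT-TD counts were 0.113%, 0.174% and 0.161% of those of the flanking MT-CO1 and MT-CO2 in shRBPMS, against 7.65%, 3.77% and 3.01% in shCtrl, and neither of these mRNAs was called.

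MT-TS1, a serine tRNA on the opposite strand next to MT-TD, had 15, 9 and 11 counts in shRBPMS and 422, 151 and 185 in shCtrl. Its level was 0.612, 0.316 and 0.393 CPM in shRBPMS and 18.8, 5.41 and 5.28 CPM in shCtrl, a log2 fold change of -4.36 (SE 0.23, adjusted p 1.31e-05). MT-TW, the tryptophan tRNA between MT-ND2 and MT-CO1, had 1, 11 and 4 counts in shRBPMS and 49, 164 and 119 in shCtrl. Every shRBPMS library was again below every shCtrl library, although MT-TW was lowest in set 1 in either group, unlike MT-TD and MT-TS1. Its log2 fold change was -4.28 (SE 0.42, adjusted p 0.000147), with -5.74 in set 1, which rests on 1 count in shRBPMS, and -4.13 in set 2.

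MT-TK, the lysine tRNA between MT-CO2 and MT-ATP8, had 14, 11 and 7 counts in shRBPMS and 182, 69 and 70 in shCtrl, a log2 fold change of -3.24 (SE 0.29, adjusted p 9.32e-05). MT-TM, which serves both initiator and elongator methionine, was at 0.897, 1.26 and 0.858 CPM in shRBPMS and 8.47, 5.20 and 4.02 CPM in shCtrl, a log2 fold change of -2.47 (SE 0.27, adjusted p 0.000237). MT-TV, the valine tRNA between the rRNAs, was at 4.20, 1.33 and 0.930 CPM in shRBPMS and 18.4, 5.95 and 4.14 CPM in shCtrl. The MT-TV groups overlapped over the sets, yet the log2 difference was -2.13 in set 1 and -2.16 in set 2 (fit -2.14, SE 0.19, adjusted p 9.27e-05).

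MT-TL1, a leucine tRNA directly after MT-RNR2 and among the more abundant tRNA rows, was at 29.1, 14.4 and 13.8 CPM in shRBPMS and 154, 36.2 and 35.2 CPM in shCtrl. The lowest control library was above the highest knockdown library, and the log2 fold change was -1.72 (SE 0.19, adjusted p 0.000246). The other 5 tRNAs that fell were MT-TA at -1.86, MT-TQ at -1.72, MT-TI at -1.19, MT-TE at -1.14 and MT-TS2 at -0.70 on the log2 scale. MT-TA held 3, 7 and 5 counts in shRBPMS and 26, 17 and 15 in shCtrl and was called in 11 of the 16 settings. It was not called in set 2 alone (adjusted p 0.0626), without either library of set 1 or without the set as a covariate (adjusted p 0.115). DESeq2 gave MT-TA no adjusted p. MT-TS2 was not called with the replicate number as a block (adjusted p 0.0535) or when any 1 library of set 2 was left out. Nor was MT-TS2 called by DESeq2 (adjusted p 0.0660) or with replicates 2 and 3 summed (adjusted p 0.159).

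**Figure D1:**
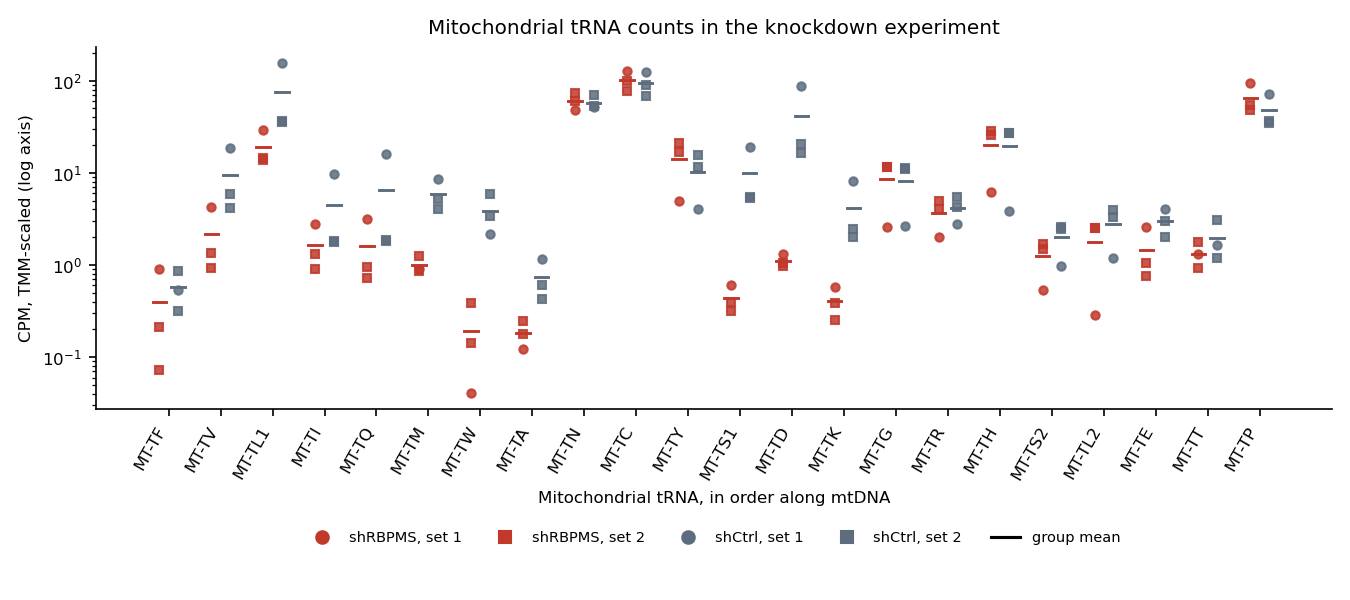
CPM of each mitochondrial tRNA (log axis) in the 3 shRBPMS and 3 shCtrl libraries, with tRNAs in their order along mitochondrial DNA, circles for set 1, squares for set 2 and a line at the group mean. MT-TD, MT-TS1, MT-TK and MT-TW show separate groups, while MT-TN, MT-TC, MT-TG and MT-TH overlap.

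The other 10 tRNAs were higher or not called. MT-TP, the proline tRNA, had 94.0, 54.2 and 47.9 CPM in shRBPMS and 71.8, 36.5 and 34.7 CPM in shCtrl, and it rose by 0.48 on the log2 scale (SE 0.07, adjusted p 0.000997). It was higher in shRBPMS within each set, by 0.39 in set 1 and 0.52 in set 2. MT-TY, for tyrosine, had 4.93, 20.9 and 16.9 CPM in shRBPMS and 4.01, 15.5 and 11.5 CPM in shCtrl, a rise of 0.45 (SE 0.14, adjusted p 0.0383). That rise was not called with replicates 2 and 3 summed (adjusted p 0.120) or without shRBPMS replicate 2, shRBPMS replicate 3 or shCtrl replicate 3. With the mitochondrial mRNA sum as library size it was not called either (adjusted p 0.133). MT-TG, the glycine tRNA, was at 2.61, 11.6 and 11.6 CPM in shRBPMS and 2.67, 11.2 and 10.9 CPM in shCtrl, close to equal library by library (log2 0.05, SE 0.10). MT-TH, for histidine, was at 6.24, 28.6 and 25.4 CPM in shRBPMS and 3.83, 27.2 and 26.9 CPM in shCtrl (log2 0.14, SE 0.13, adjusted p 0.418).

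MT-TC, for cysteine, was the most abundant tRNA row in every library but shCtrl replicate 1, where MT-TL1 was at 154 CPM. MT-TC was at 128, 99.2 and 77.9 CPM in shRBPMS and 125, 90.5 and 68.0 CPM in shCtrl (log2 0.12, SE 0.12). MT-TN, for asparagine, had a log2 difference of 0.05 (SE 0.11). The other tRNAs without a call in the reported test were MT-TR at -0.21, MT-TT at -0.55, MT-TF at -0.74 and MT-TL2 at -0.75, with SEs of 0.18, 0.39, 0.65 and 0.26. MT-TL2 was called lower in 5 of the 16 settings, among them DESeq2 (adjusted p 0.0324), and MT-TF in 2 of the 15 settings that held it. MT-TF rested on 2 to 24 counts a library.

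Along the genome, 10 of the 13 tRNAs from MT-TV to MT-TK were lower, 1 was higher and 2 were not called, with a median log2 fold change of -1.86. Outside that stretch 2 of 9 were lower, 1 was higher and 6 were not called, with a median of -0.55. The stretch was delimited after the values were seen, so this split is a description. In it all 7 plus-strand tRNAs were lower, against 3 of the 6 on the minus strand. Over the whole genome 8 of 14 plus-strand and 4 of 8 minus-strand tRNAs were lower, and both tRNAs that rose are on the minus strand.

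**Figure D2:**
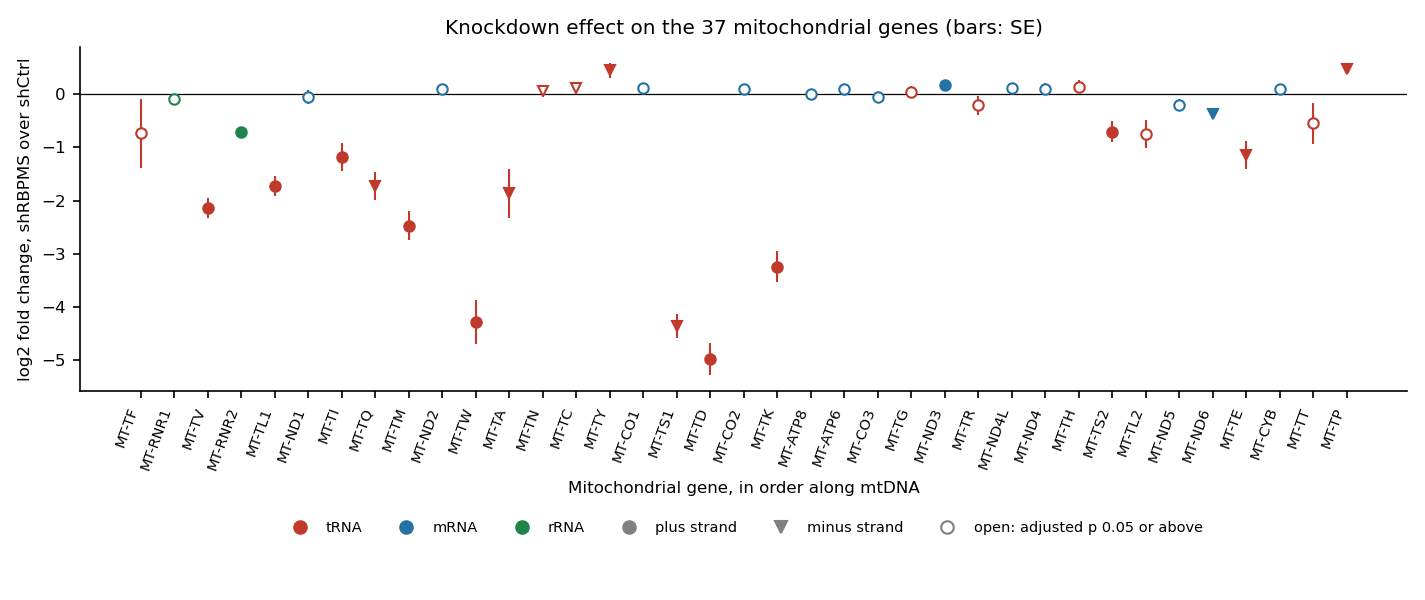
log2 fold change of shRBPMS over shCtrl (vertical axis, bars are SE) for the 37 mitochondrial genes in order along mitochondrial DNA, coloured by class, with triangles for the minus strand and open symbols for an adjusted p of 0.05 or above. Filled tRNA symbols reach -4.98 at MT-TD, while the 13 mRNAs lie between -0.38 and 0.18.

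The tRNA rows are 59 to 75 bases long. Read length, the strand setting of the counting and the treatment of reads that cover neighbouring genes are not given in the sources used here, so a count on a tRNA row may come from the tRNA or from a longer RNA across it, on either strand.

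The mitochondrial mRNAs, which encode subunits of the respiratory chain and of ATP synthase, differed by small amounts. Of 13 mRNAs 1 was higher, 1 was lower and 11 were not called, with a median log2 fold change of 0.10 and a range of -0.38 to 0.18. MT-CO1, a core subunit of cytochrome c oxidase and the row with the most CPM per kb, was at 32304, 15910 and 16013 CPM in shRBPMS and 31202, 14400 and 14346 CPM in shCtrl (log2 0.12, SE 0.05, adjusted p 0.117). The libraries of set 1 were about as far above those of set 2 in either group, and within a set the groups were close. MT-CO2, on the other side of MT-TD, had a log2 difference of 0.10 (SE 0.06). MT-ATP8 overlaps MT-ATP6 and MT-ND4L overlaps MT-ND4 in the annotation, so the split of counts within these pairs is uncertain.

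MT-ND3, a subunit of complex I, was at 1977, 2133 and 2042 CPM in shRBPMS and 1766, 1825 and 1851 CPM in shCtrl. The groups did not overlap, and it rose by 0.18 (SE 0.05, adjusted p 0.0199). The call was lost with the replicate number as a block (adjusted p 0.0690) and without any 1 library of set 2. It was also lost with replicates 2 and 3 summed (adjusted p 0.407) and with the mitochondrial mRNA sum as library size (adjusted p 0.446). MT-ND6, the only mRNA of the minus strand, was at 1605, 921 and 822 CPM in shRBPMS and 2492, 1096 and 971 CPM in shCtrl, and it fell by 0.38 (SE 0.09, adjusted p 0.0119). That decrease was not called with replicates 2 and 3 summed (adjusted p 0.0682) or without shRBPMS replicate 3.

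The sets differed for the mRNAs. In set 1, with 1 library a group, 11 of 13 mRNAs were lower in shRBPMS, and in set 2 11 of 13 were higher. MT-ND1, a complex I subunit, was at 7953, 4084 and 3869 CPM in shRBPMS and 11560, 3629 and 3388 CPM in shCtrl, so its log2 difference was -0.54 in set 1 and 0.18 in set 2. Its fitted value of -0.06 averages over both. Without either library of set 1, and likewise in set 2 alone, 10 of the 13 mRNAs were called higher and 1 lower, with medians of 0.16 on the log2 scale. Of all genes 41.8% to 42.2% were called in these settings, with 3324 higher and 3506 lower of 16189 in set 2 alone. A test of the set 1 effect minus the set 2 effect passed in 17.3% of all genes and in 19 of the 48 members. It takes its spread from replicates 2 and 3 alone, which differed far less from each other than from replicate 1, so its p-values compare these libraries. The 12 tRNAs that fell were lower in both sets.

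Of the rRNAs, MT-RNR2, which encodes the large-subunit rRNA of the mitochondrial ribosome, was at 10023, 2980 and 2708 CPM in shRBPMS and 19794, 4454 and 4004 CPM in shCtrl. It was lower in shRBPMS within each set, with log2 differences of -0.98 in set 1 and -0.57 in set 2, and it fell by 0.71 in the fit (SE 0.09, adjusted p 0.000585). MT-RNR1, the small-subunit rRNA, was at 2323, 714 and 694 CPM in shRBPMS and 3076, 733 and 619 CPM in shCtrl (log2 -0.10, SE 0.10, adjusted p 0.491). The tRNA between them is MT-TV, and the tRNA after MT-RNR2 is MT-TL1, both among those that fell.

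Ratios within a library do not depend on the scaling between libraries. MT-RNR2 had 4.32, 4.18 and 3.90 counts per MT-RNR1 count in shRBPMS and 6.43, 6.07 and 6.47 in shCtrl, and the groups did not overlap in either set. The ratio was 8.13 and 7.07 in RB98# and 7.66 and 7.78 in DMSO cells. Both rRNAs together had 10.0, 5.82 and 5.49 counts per 100 mitochondrial mRNA counts in shRBPMS and 16.4, 9.23 and 8.27 in shCtrl, lower in shRBPMS in both sets. With RB98# this value was 8.34 and 7.94, against 8.61 and 9.004 with DMSO. The 22 tRNAs together had 27.1, 50.7 and 43.3 counts per 10000 mRNA counts in shRBPMS and 42.5, 63.0 and 52.5 in shCtrl, a log2 ratio of the means of -0.38. These groups overlapped over the sets, but within each set every shRBPMS library was lower than every shCtrl library. Most tRNA counts lay on MT-TC, MT-TN, MT-TP and MT-TL1, of which MT-TL1 alone fell.

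**Figure D3:**
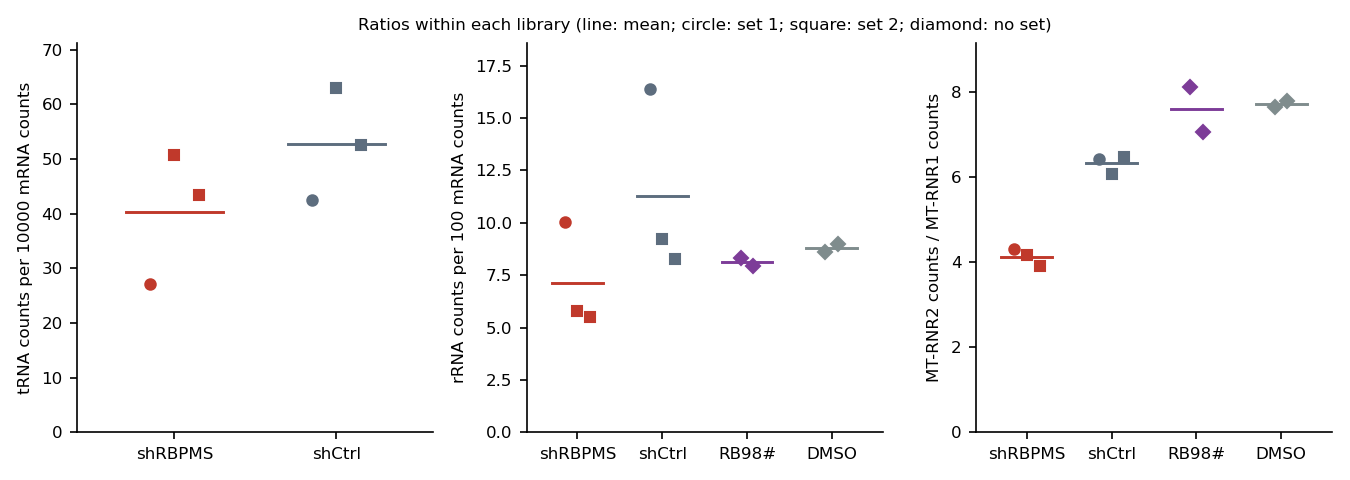
Counts of tRNA per 10000 mRNA counts, of rRNA per 100 mRNA counts, and of MT-RNR2 per MT-RNR1 count in each library, all mitochondrial, with the group mean as a line and the set as the symbol. The MT-RNR2 to MT-RNR1 ratio lies between 3.90 and 4.32 in shRBPMS and between 6.07 and 6.47 in shCtrl.

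Among the subunits of mitochondrial RNase P, HSD17B10 stood apart. This protein, also a dehydrogenase of isoleucine breakdown, works with TRMT10C as the part of the complex that binds and methylates the tRNA precursor. HSD17B10 (chrX:53431258-53434373 in GRCh38, minus strand) was at 45.5, 82.0 and 78.6 CPM in shRBPMS and 8.42, 16.5 and 14.9 CPM in shCtrl. The lowest knockdown library was far above the highest control library, and the rise was 2.43 in set 1, 2.35 in set 2 and 2.38 in the fit (SE 0.07, adjusted p 1.28e-06). Over the settings tried it lay between 2.32 and 2.42.

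The other subunits were not called in the reported test, though PRORP was called lower in 1 of the 16 settings. TRMT10C, the methyltransferase, was at 46.4, 49.0 and 43.8 CPM in shRBPMS and 41.3, 53.4 and 46.7 CPM in shCtrl (log2 -0.02, SE 0.09, adjusted p 0.890). PRORP, the nuclease, was at 9.17, 7.20 and 6.90 CPM in shRBPMS and 13.1, 9.43 and 7.45 CPM in shCtrl, lower in each set but not called (log2 -0.34, SE 0.12, adjusted p 0.0616). Per 100 TRMT10C counts there were 98.1, 167 and 180 HSD17B10 counts in shRBPMS and 20.4, 30.9 and 31.9 in shCtrl. In the other experiment there were 136 and 178 in RB98# and 121 and 125 in DMSO cells, so on this ratio the shCtrl libraries were the ones apart from the other 7. PRORP counts per 100 TRMT10C counts split otherwise, by experiment. They were 14.7 to 31.6 over the shRBPMS and shCtrl libraries and 43.9 to 85.7 over the RB98# and DMSO libraries. TRMT10C itself was lower with RB98#, at 36.1 and 33.3 CPM against 47.2 and 49.0 CPM with DMSO. Both ratios in RB98# cells thus also carry that change in TRMT10C. Levels in the 2 tables were scaled apart, and why the controls of the 2 experiments differ was not tested.

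ELAC2, the nuclease of the 3′ end, was at 82.0, 85.5 and 86.6 CPM in shRBPMS and 67.3, 73.3 and 71.5 CPM in shCtrl, and it rose by 0.26 (SE 0.05, adjusted p 0.00414). POLRMT, the RNA polymerase, was at 49.9, 111 and 116 CPM in shRBPMS and 39.5, 89.6 and 89.2 CPM in shCtrl, a rise of 0.34 in the fit and in both sets (SE 0.05, adjusted p 0.00124). Both calls were lost with replicates 2 and 3 summed (adjusted p 0.159 for ELAC2 and 0.0832 for POLRMT). They were also lost with the mitochondrial mRNA sum as library size (adjusted p 0.172 for ELAC2 and 0.0665 for POLRMT). TBRG4, which stabilises a subset of the mRNAs, rose by 0.21 (SE 0.06, adjusted p 0.0208). It was not called with the replicate block (adjusted p 0.0557) or without shRBPMS replicate 3, shCtrl replicate 2 or shCtrl replicate 3. Nor was TBRG4 called with replicates 2 and 3 summed (adjusted p 0.195) or with the mitochondrial mRNA sum as library size (adjusted p 0.361).

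The transcription factors of the promoters gave no call in the reported test. TFAM, which packs and bends mitochondrial DNA, had a log2 difference of -0.02 (SE 0.06), and TFB2M, which opens the promoter, one of 0.18 (SE 0.06, adjusted p 0.0508). TFB2M was called higher in 5 of the 16 settings, among them library totals (edgeR adjusted p 0.0251) and set 2 alone (edgeR adjusted p 0.00317). LRPPRC was at 477, 372 and 363 CPM in shRBPMS and 485, 348 and 346 CPM in shCtrl, its partner SLIRP at 53.3, 59.6 and 56.2 CPM in shRBPMS and 55.8, 60.8 and 60.9 CPM in shCtrl. Their log2 differences were 0.05 (SE 0.05) and -0.07 (SE 0.05). FASTKD5, which acts on mRNA ends that no tRNA borders, had -0.12 (SE 0.07, adjusted p 0.203).

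**Figure D4:**
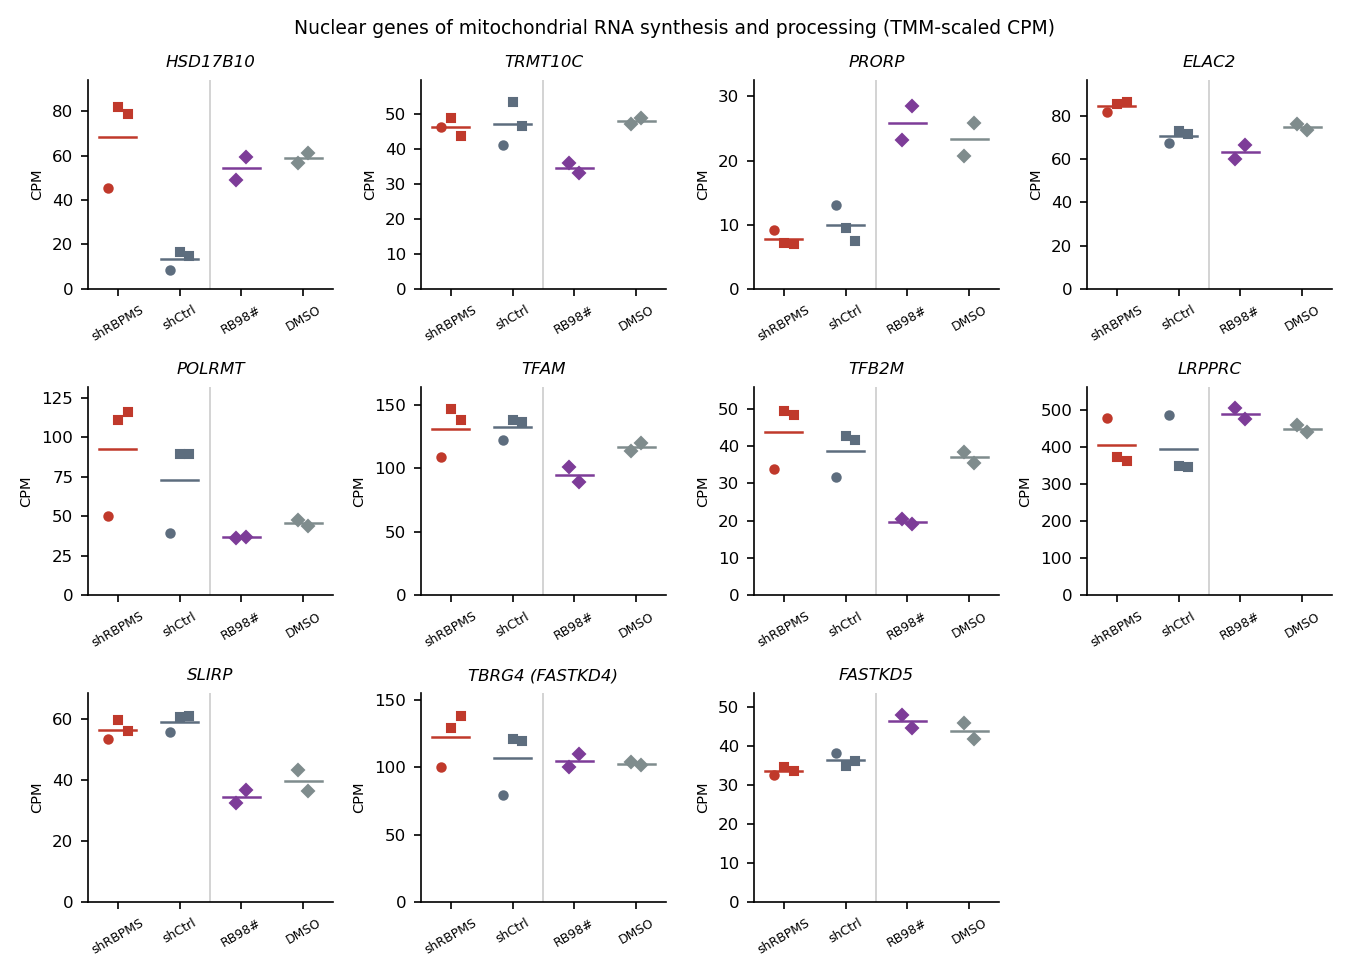
CPM of the 11 nuclear genes in each library of shRBPMS, shCtrl, RB98# and DMSO cells, with the group mean as a line, circles for set 1, squares for set 2 and diamonds for the RB98# experiment, which was scaled apart. HSD17B10 lies between 45.5 and 82.0 CPM in shRBPMS and between 8.42 and 16.5 CPM in shCtrl, and TFB2M lies at 20.5 and 19.0 CPM in RB98# and at 38.4 and 35.4 CPM in DMSO cells.

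In the RB98# test 4659 of 12324 genes, or 37.8%, passed an adjusted p of 0.05, 20.5% of all genes higher and 17.3% lower with RB98#. Of the 26 members 7 were higher and 8 lower. The 7 were mRNAs, and the 8 were 3 mRNAs and 5 nuclear genes. RBPMS was at 6.62 and 8.06 CPM with RB98# and 7.17 and 6.40 CPM with DMSO (log2 0.11, not called).

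The mRNA changes with RB98# were small. MT-ND4, a complex I subunit, was at 10858 and 10183 CPM with RB98# and 8833 and 8852 CPM with DMSO, a rise of 0.25 (SE 0.05, adjusted p 0.00018). It was called in all 11 settings tried. MT-ND4L at 0.22, MT-CO2 at 0.21, MT-ATP6 at 0.19, MT-CO1 at 0.16, MT-CYB at 0.15 and MT-CO3 at 0.12 were also higher. MT-ND4L varied between replicates, at 1077 and 1290 CPM with RB98# and 1073 and 956 CPM with DMSO. DESeq2 called neither MT-ND4L (adjusted p 0.305) nor MT-CO3 (adjusted p 0.0610). When library totals replaced the TMM factors, the median over all genes moved by -0.10. Of the mRNAs 1 was then higher and 5 were lower, against 1690 higher and 3276 lower of all 12324 genes. MT-ND1 at -0.14 (edgeR adjusted p 0.0359) and MT-ND5 at -0.16 (adjusted p 0.0232) were called lower there but not in the reported test. MT-ATP8 was called in neither. The 6 rises other than that of MT-ND4 lost their calls with library totals. All 6 were also lost without DMSO replicate 2, and 5 of them, all but MT-ND4L, without DMSO replicate 1.

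MT-ND2 was at 5617 and 5295 CPM with RB98# and 6221 and 6349 CPM with DMSO, a fall of 0.20 (SE 0.05, adjusted p 0.00167). MT-ND6 fell by 0.20 and MT-ND3 by 0.18, and these 3 remained called with library totals. When replicate numbers entered as a block, although nothing in the labels pairs them here, 35.9% of genes and 12 members were called. Of the 3 falls, those of MT-ND2 and MT-ND3 lost their calls without either DMSO library, and that of MT-ND6 without DMSO replicate 2 or RB98# replicate 1. MT-RNR1 and MT-RNR2 had log2 differences of 0.02 and 0.00 (SE 0.05 each).

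Of the nuclear genes, TFB2M was at 20.5 and 19.0 CPM with RB98# and 38.4 and 35.4 CPM with DMSO, and it fell by 0.90 (SE 0.10, adjusted p 2.77e-07). TRMT10C was at 36.1 and 33.3 CPM with RB98# and 47.2 and 49.0 CPM with DMSO, and it fell by 0.47 (SE 0.09, adjusted p 0.000254). Neither gene's groups overlapped, and both were called in all 11 settings. POLRMT fell by 0.33 (SE 0.09), TFAM by 0.30 (SE 0.07) and ELAC2 by 0.24 (SE 0.08), with adjusted p of 0.00672, 0.00221 and 0.0192, and each lost its call when 1 DMSO library was left out. All 3 factors that transcribe mitochondrial DNA were thus lower with RB98#. HSD17B10 was at 49.1 and 59.4 CPM with RB98# and 56.9 and 61.3 CPM with DMSO, and its groups overlapped (log2 -0.13, SE 0.09, adjusted p 0.299). It was called lower in 2 of the 11 settings, without RB98# replicate 2 (-0.27, adjusted p 0.0132) and with the mitochondrial mRNA sum as library size (-0.24, adjusted p 0.0486), and lay between -0.27 and -0.01 with 1 library left out. PRORP, LRPPRC, SLIRP, TBRG4 and FASTKD5 were not called, with log2 differences between -0.20 and 0.14.

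**Figure D5:**
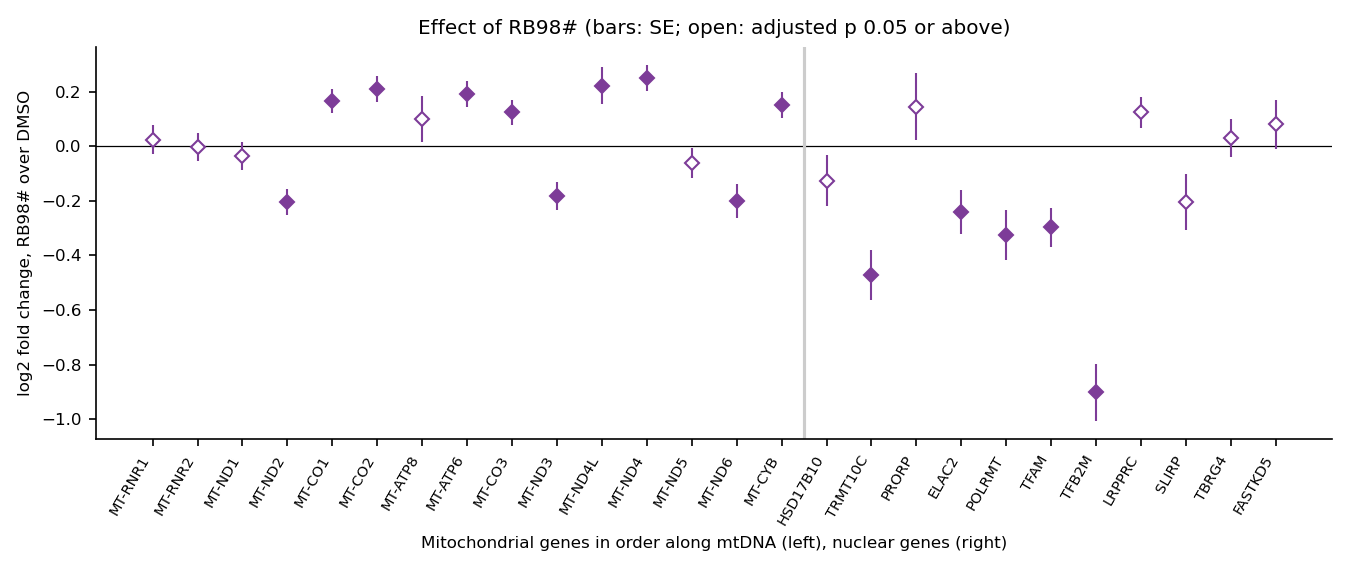
log2 fold change of RB98# over DMSO (vertical axis, bars are SE) for the 15 mitochondrial mRNA and rRNA genes in order along mitochondrial DNA and for the 11 nuclear genes, with open symbols for an adjusted p of 0.05 or above. TFB2M is lowest at -0.90, and the mitochondrial genes lie between -0.20 and 0.25.

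The effect of RB98# minus the effect of the knockdown was tested on the 12126 genes in both tables, and 5439 of them, 44.9%, differed, as did 9 of the 26 members. HSD17B10 differed most, by -2.52 on the log2 scale (SE 0.13, adjusted p 1.16e-07), with an effect of -0.13 for RB98# and 2.38 for the knockdown. TFB2M differed by -1.09 (SE 0.11, adjusted p 1.89e-05), POLRMT by -0.68, ELAC2 by -0.52, TRMT10C by -0.47 and TFAM by -0.29. MT-RNR2 differed by 0.69 (SE 0.13, adjusted p 0.00134), since it fell in the knockdown and had an effect of 0.00 with RB98#. MT-ND3 differed by -0.37 and MT-ND2 by -0.32. In a fit of 4 groups without the sets 2 of these 9 were called, HSD17B10 and TFB2M.

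Further genes of mitochondrial RNA metabolism were counted from lists. In the knockdown, 6 of 19 transcription and nucleoid genes were higher and 2 lower, with TOP1MT, a mitochondrial topoisomerase, at 0.77, DNA2 at -0.61 and POLG, the DNA polymerase, at 0.55. Of 22 aminoacyl-tRNA synthetase and amidotransferase genes 6 were higher and none lower, with VARS2 at 0.85 on 0.624 to 1.72 CPM, PARS2 at 0.40 and GATB at 0.36. Of 20 tRNA modification genes 5 were higher and 3 lower, with ALKBH1 at -0.69, QTRT1 at 0.64 and OSGEPL1 at 0.59. Of 23 stability and decay genes 5 were higher and 3 lower, with RPUSD3 at -0.64, LACTB2 at 0.62 and FASTK at 0.57. None of 6 rRNA modification genes passed. The shares are to be read against 17.5% higher and 18.4% lower among all genes.

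With RB98#, 11 of the 23 stability and decay genes were lower and none was higher, with FASTKD3 at -0.93, PTCD2 at -0.67 and DDX28 at -0.57, against 17.3% of all genes lower. Their median was -0.17 on the log2 scale, against 0.00 over all genes. Of the 20 tRNA modification genes 6 were lower and 1 higher, with TRMT5 at -0.87, QTRT2 at -0.55 and OSGEPL1 at 0.52. Of the 6 rRNA modification genes 3 were lower and 1 higher, with the methyltransferases MRM1 at -0.88 and MRM2 at -0.58, and METTL15 at 0.52. Of the 19 transcription and nucleoid genes 4 were lower and 1 higher, with TWNK, the helicase of mitochondrial DNA, at -0.85, PRIMPOL at -0.58 and POLG at 0.53. Of the 22 synthetase genes 6 were lower and 2 higher, with PARS2 at -0.77, MARS2 at -0.64 and GARS1, shared with the cytosol, at 0.55.

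Of 9 other HSD17B genes measured in the knockdown none was higher, and HSD17B11 alone was lower, at -0.49. With RB98#, 3 of 6 were higher, HSD17B7, an enzyme of cholesterol synthesis, at 1.02, HSD17B12 at 0.46 and HSD17B11 at 0.23. Of 9 genes of isoleucine breakdown measured in the knockdown 5 were higher and 1 lower, with the aminotransferases BCAT2 at 0.71 and BCAT1 at -0.39, and BCKDHB at 0.57. With RB98#, 2 of 10 were higher, ACADSB at 0.42 and DBT at 0.38, and none was lower. Over all genes 17.5% were higher and 18.4% lower in the knockdown, and 20.5% were higher and 17.3% lower with RB98#.

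In the authors' deposited table of the knockdown 10 of the 22 tRNAs were lower past an adjusted p of 0.05, none higher, no mRNA was called and 1 rRNA was lower. In the authors' deposited table that threshold was passed by 11.3% of all genes, 4.74% higher and 6.6% lower. The authors' deposited table gives MT-TD a log2 fold change of -4.58 and HSD17B10 one of 2.36. For RB98#, the authors' deposited table has 6 of 13 mRNAs higher and 3 lower, and 22.2% of all its genes past the threshold, 13.7% higher and 8.44% lower.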

How the data were processed

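RNA of Kasumi-1 cells was measured by RNA-seq in 10 libraries. The other 4 of the 14 samples, which are immunoprecipitated samples and their inputs, were not analysed here. Per the submitters' processing notes the tools were deepTools 3.5.1, MACS2 2.2.6, DESeq2 1.32.0, StringTie, featureCounts 2.0.1, HISAT2 2.2.1 and fastp 0.22.0, on hg38/GRCh38, with no role given for any. The annotation release, the strand setting and the selection of RNA before the RNA-seq libraries were made are not given in the sources used here. Per the file headers and their whole numbers, the columns used are raw counts for each gene, as deposited, with no scaling between libraries. The knockdown table has no gene with a summed count under 27, and the RB98# table has none under 50, with 112 repeated lines dropped here from its 12437 lines. Another 10 per-library columns were not used. The deposited log2 fold changes and p-values come from the authors' own comparison and are quoted where the text says so.

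Counts were tested with quasi-likelihood F tests of edgeR 4.0.16 (R 4.3.3), with TMM factors, filterByExpr at a count of 10 and a total of 15, and two-sided p-values adjusted by Benjamini-Hochberg over all genes tested, with a threshold of 0.05. The design was label set and group for the knockdown, group alone for RB98#, and both with the experiment for the difference of effects. Each log2 fold change was divided by the square root of its F value to give the SE. CPM are counts per 1e6 counts scaled by TMM factors within an experiment. With n of 2 or 3 a group, the spread comes from 2 to 5 residual degrees of freedom moderated across genes, and counting error is largest for the tRNA rows. The scripts were tested on simulated data. Alternatives used other scalings, no filter, DESeq2 1.42.0, voom of limma 3.58.1, other designs and 1 library left out at a time.

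Log2 CPM deviations from the group means were compared over 10606 genes in the knockdown. Same-numbered libraries of the knockdown correlated at 0.852, 0.772 and 0.800, so the replicate number was also used as a block, but replicates 2 and 3 across groups correlated at 0.776 and 0.767, so the shared part follows the label set. For RB98#, over 10443 genes, the correlation was -0.0585, which gives no pairing. Counts of replicates 2 and 3 differed by more than sampling noise (chi-square per degree of freedom 3.03 in shRBPMS and 3.01 in shCtrl, against 133 to 215 between either and replicate 1), and they were kept as separate libraries. Between replicates 1 and 2 the value was 4.90 in RB98# and 2.24 in DMSO. The RB98# test thus also took its spread from libraries that were close to each other.

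All members are named with values or a range. Of each other list up to 3 members past the threshold with the largest log2 fold change are named. The members, the 7 lists of 112 genes and the alternatives were chosen with earlier results of these data known.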

Additional observations from a re-analysis of the deposited data

Results flagged for a closer look

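The effect of RB98# over DMSO minus the effect of shRBPMS over shCtrl differed from 0 in an edgeR test (adjusted p under 0.05) for 9 members. On the log2 scale these differences were -2.52 for HSD17B10, -1.09 for TFB2M, -0.68 for POLRMT, -0.52 for ELAC2, -0.47 for TRMT10C and -0.29 for TFAM among the nuclear genes. They were 0.69 for MT-RNR2, -0.37 for MT-ND3 and -0.32 for MT-ND2. Over all genes 44.9% differed.

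The knockdown effect in set 1 minus that in set 2 differed from 0 for 19 members, against 17.3% of all genes, in a test added after the data were seen. Set 1 has 1 library a group, so this test takes its spread from replicates 2 and 3 alone, which were close to each other (chi-square per degree of freedom 3.03 and 3.01, against 133 to 215 between either and replicate 1), and its p-values compare these libraries. Among the tRNAs the difference was -1.90 for MT-TD, -1.19 for MT-TQ, -1.10 for MT-TI and -1.06 for MT-TL1, which all fell more in set 1, and 0.70 for MT-TH. It was -0.46 for MT-RNR1 and -0.41 for MT-RNR2. Of the mRNAs, MT-ND1 had -0.72, MT-ND4 -0.60, MT-ND5 -0.48, MT-ND4L -0.47, MT-ATP8 -0.44, MT-CYB -0.41, MT-ND6 -0.39, MT-ND2 -0.33, MT-CO3 -0.33, MT-ATP6 -0.21 and MT-CO2 -0.19. TFAM, at -0.22, was the nuclear member among the 19. The mitochondrial share of counts was higher in set 1 in both groups. It is the sum of the mitochondrial rows themselves, so it is not a separate measure to set beside these differences, whose cause was not tested.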

How the results depend on the processing

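In the knockdown, HSD17B10, MT-TD, MT-TS1, MT-TW and MT-TM kept their direction and their call in all 16 settings. The count of 5810 genes and 21 members fell to 320 genes and 5 members without the label set, to 3222 genes (984 higher and 2238 lower) and 17 members with the mitochondrial mRNA sum as library size, and to 2671 genes and 14 members with replicates 2 and 3 summed. Leaving out 1 library gave 4146 to 6843 genes and 16 to 32 members. The 32 came without either library of set 1, where set 2 alone decides and 17 members were higher. MT-ND1, at -0.06 in the reported test, ranged from -0.18 to 0.18 and MT-ATP8 from -0.11 to 0.15 with 1 library left out, and both were higher (0.18 and 0.15) without a library of set 1 and in set 2 alone. The replicate block, whose pairing follows the label set, called 4549 genes and 18 members and lost MT-ND3, MT-TS2 and TBRG4. With RB98# the block called 4430 genes and 12 members and lost MT-CO1, MT-CO3 and MT-CYB, and its numbers pair nothing. For RB98# 4659 genes and 15 members were called, and leaving out 1 library gave 2731 to 5028 genes and 4 to 18 members, with 2843 and 6 without DMSO replicate 1 and 2731 and 4 without DMSO replicate 2. Library totals split the RB98# calls into 1690 higher and 3276 lower, against 2530 and 2129, and the mitochondrial mRNA sum into 1611 and 3421. The difference of effects called 5439 genes and 9 members, and 988 and 2 with 4 groups and no label set, and library totals split it into 2134 higher and 3629 lower, against 2724 and 2715. DESeq2 called 5325 genes and 20 members in the knockdown and 3274 genes and 12 members with RB98#. The log2 ratio of tRNA to mRNA counts lay between -0.58 and -0.16 with 1 library left out and was -0.38 against all counts. A ratio over tRNA rows held by both tables could not be computed, since tRNA rows were analysed in the knockdown alone. The cause of these shifts was not tested. Depth limits MT-TF, MT-TA and MT-TW most, with 1 to 26 counts in several libraries.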

Other observations

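Some members and list genes had levels that differed more between the experiments than within them, although both used the same line. VARS2, the mitochondrial valyl-tRNA synthetase, was at 1.39, 1.405 and 1.72 CPM in shRBPMS, 0.624, 1.076 and 0.799 CPM in shCtrl, 25.2 and 25.5 CPM in RB98# and 33.3 and 29.7 CPM in DMSO cells. PRORP was at 6.90 to 13.1 CPM over the 6 knockdown libraries and 20.8 to 28.5 CPM over the 4 others. HSD17B10 was below 20 CPM in the shCtrl libraries alone. MT-RNR2 counts per MT-RNR1 count were 7.66 and 7.78 in DMSO and 6.43, 6.07 and 6.47 in shCtrl cells, so the controls of both experiments differed there too. Levels were scaled apart in each table, and no test was made across them.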
